A study of Homo sapiens and Mus musculus with 16 samples.

Results

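The genes described here are the enzymes of glycolysis and the genes of the hypoxia response, 38 in all, in cells edited to lose PD-L1. They were chosen by symbol: 17 glycolytic enzymes and 21 other genes, which are sugar and lactate transporters, regulatory kinases, HIF subunits, the oxygen-sensing hydroxylases and well-known HIF targets. All 38 were found among the 58713 genes of the human table, and 36 among the 53796 genes of the mouse table, where the symbols Ca9 and Ca12 have no row. None of the rows carried HIDATA, a status given by the authors' software, whose genes were left out. The groups were MDA-MB-231 cells with PD-L1 knocked out, MDA-MB-231 wild type cells, CT26 cells with Pd-l1 knocked out and CT26 wild type cells, with 4 libraries of total RNA each. MDA-MB-231 is a human triple-negative breast cancer line, grown in DMEM, and CT26 is a mouse colon carcinoma line, grown in RPMI 1640, both with serum. The knockout was made by CRISPR delivered with a lentivirus. Whether the knockout cells were 1 clone or a pool, and whether the wild type cells had received a control virus, is not stated in the labels. The labels also do not say that a group's libraries are separate cultures, and p-values then measure only the spread among these 16 libraries, possibly a technical one.

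Glycolysis turns glucose into pyruvate in a chain of reactions from hexokinase to pyruvate kinase, and lactate dehydrogenase then makes lactate, which leaves the cell through monocarboxylate transporters. When oxygen is low, the prolyl hydroxylases of the EGLN family stop marking the HIF alpha subunits for destruction, and HIF switches on glucose uptake, most steps of glycolysis, lactate export, pH control, vessel growth and mitophagy. HIF alpha is regulated mainly at the protein level, so its mRNA does not report its activity. Many tumour lines run glycolysis at a high rate even with oxygen present.

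HIF binds DNA at a short core, written ACGTG or GCGTG, and the promoters of members that changed in opposite directions in the human line are shown to set that core beside the values that follow. The sequences are RefSeq promoters of GRCh38.p14, from 250 bases before to 50 bases after an annotated start, 5′ to 3′, with both forms of the core in capitals. On the other strand the core reads CACGT or CACGC, and these are in capitals too. CA9, BNIP3 and LDHA were lower in the MDA-MB-231 knockout, as was EGLN3, whose promoter holds none of these letters in this window. ADM and LDHB were higher. These are examples: HK2 and ALDOC, also higher, each have a promoter with 4 sites that is not printed. LDHA has another listed promoter, with 1 site.
CA9 (chr9:35673678-35673977, plus strand): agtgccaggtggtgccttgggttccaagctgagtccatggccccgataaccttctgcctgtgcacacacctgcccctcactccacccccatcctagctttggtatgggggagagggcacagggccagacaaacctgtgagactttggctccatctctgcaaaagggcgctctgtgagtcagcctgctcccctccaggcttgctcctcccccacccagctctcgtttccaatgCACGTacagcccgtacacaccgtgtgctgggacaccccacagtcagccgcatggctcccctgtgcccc
BNIP3 (chr10:131981874-131982173, minus strand): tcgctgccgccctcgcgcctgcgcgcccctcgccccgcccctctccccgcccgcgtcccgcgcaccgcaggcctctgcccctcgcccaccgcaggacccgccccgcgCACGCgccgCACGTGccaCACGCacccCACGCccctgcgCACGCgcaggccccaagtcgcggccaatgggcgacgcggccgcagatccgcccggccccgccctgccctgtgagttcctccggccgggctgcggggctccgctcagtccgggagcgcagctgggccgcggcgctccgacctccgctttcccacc
LDHA (chr11:18394313-18394612, plus strand): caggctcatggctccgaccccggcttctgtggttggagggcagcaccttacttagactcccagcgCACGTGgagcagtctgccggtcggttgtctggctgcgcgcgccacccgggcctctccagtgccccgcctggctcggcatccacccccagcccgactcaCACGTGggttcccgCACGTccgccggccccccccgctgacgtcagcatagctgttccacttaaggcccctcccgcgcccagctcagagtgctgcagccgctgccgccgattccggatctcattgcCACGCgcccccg
EGLN3 (chr14:33951025-33951324, minus strand): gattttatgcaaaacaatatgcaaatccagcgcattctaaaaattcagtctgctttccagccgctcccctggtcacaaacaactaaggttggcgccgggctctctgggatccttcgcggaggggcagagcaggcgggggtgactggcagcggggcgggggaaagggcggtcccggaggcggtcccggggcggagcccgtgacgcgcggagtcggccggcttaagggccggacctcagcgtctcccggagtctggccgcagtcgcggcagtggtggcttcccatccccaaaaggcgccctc
ADM (chr11:10304823-10305122, plus strand): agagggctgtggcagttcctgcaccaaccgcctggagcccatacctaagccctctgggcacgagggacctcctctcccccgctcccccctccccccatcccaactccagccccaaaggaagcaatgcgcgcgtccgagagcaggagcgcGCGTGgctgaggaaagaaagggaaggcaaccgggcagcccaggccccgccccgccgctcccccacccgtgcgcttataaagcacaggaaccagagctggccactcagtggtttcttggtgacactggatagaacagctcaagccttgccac
LDHB (chr12:21657793-21658092, minus strand): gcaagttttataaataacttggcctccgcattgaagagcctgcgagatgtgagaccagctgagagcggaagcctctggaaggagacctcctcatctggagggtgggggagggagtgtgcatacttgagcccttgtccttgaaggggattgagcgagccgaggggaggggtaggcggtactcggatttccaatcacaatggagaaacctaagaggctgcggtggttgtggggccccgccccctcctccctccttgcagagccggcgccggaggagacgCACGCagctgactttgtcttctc
The RefSeq table held 62 promoters for 33 of the 38 members, since some genes have several starts, and none for SLC2A3, SLC16A1, VEGFA, BNIP3L and NDRG1. A core, with CACGTG counted as 1 site, was present in 42 of the 62 (67.7%), in 25 of 31 promoters of members that were lower in the MDA-MB-231 knockout and in 14 of 23 of those that were higher. Over the 14255 promoters of genes tested in MDA-MB-231 the share was 60.9%, and over all 22199 promoters of protein-coding genes in the table it was 54.7%. At least 2 sites were present in 7 of the 31 lower promoters (22.6%) and in 6 of the 23 higher ones (26.1%). Among promoters of genes tested in MDA-MB-231 that share was 28.8%. These counts are of promoters, and starts of the same gene can overlap. PFKM, which was higher, has several starts, most of them without a core. Counted by gene, only EGLN3 among the lower members and PGAM1 among the higher ones had no core in any listed promoter. A match to so short a string is a description and not a binding site.

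The values are FPKM, the fragments per kilobase of transcript scaled for library size, and no counts were given. How the libraries were scaled to each other was not stated. Relative depth, read from the lowest values and set to 1 for wild type replicate 1 of each line, was 0.509 to 0.779 in the MDA-MB-231 knockout and 0.941 to 1.21 in its wild type, and 0.927 to 2.49 in the CT26 knockout and 0.799 to 1.14 in its wild type. In MDA-MB-231, low values thus rest on fewer fragments in the knockout. The targeted transcript did not pass the test in MDA-MB-231, where CD274 had 10.6 ± 1.91 FPKM in the knockout and 12.2 ± 0.670 FPKM in the wild type (limma adjusted p = 0.166). It was lower in CT26, where Cd274 had 0.526 ± 0.0552 FPKM in the knockout and 1.41 ± 0.127 FPKM in the wild type (SD, n = 4 each), log2 fold change -0.66, SE 0.077. The CT26 values are given as a description, since only the wild type libraries reached the 1 FPKM needed for testing. A CRISPR edit need not lower the transcript it disrupts. VIM was at 1095 FPKM or more and ESR1 and PGR at 0.130 FPKM or less in the MDA-MB-231 libraries, while in CT26 the epithelial marker Epcam was listed at 0 in all 8 libraries, Krt8 reached 0.295 FPKM and Krt18 34.8 FPKM. Of 5 markers chosen for MDA-MB-231, 3 were high enough to test: VIM, CD44 and ERBB2, the last of which should be low or absent. Of these 3, 1 rose and 2 fell in the knockout, with 1 rise and 1 fall of at least 2-fold. Of the leukocyte markers PTPRC, CD3E, CD68 and AIF1, all but CD68 stayed below 1 FPKM in every library of both lines, as did PECAM1, CDH5 and KDR of endothelial cells, while CD68 had 78.1 to 93.8 FPKM in the MDA-MB-231 knockout and 100.04 to 109 FPKM in its wild type. Of 5 fibroblast markers, 3 were tested in each line. In CT26 Col1a2 rose, with 288 to 306 FPKM in the knockout and 243 to 246 FPKM in the wild type, while Col1a1 and Pdgfrb fell, with log2 fold changes of -0.70 and -0.24. In MDA-MB-231 COL1A1 and COL1A2 fell, with log2 fold changes of -1.34 and -0.99, PDGFRB had -0.070 and did not pass, and DCN and LUM were too low to test, as were Dcn and Lum in CT26. Their part in the results was not tested.

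In MDA-MB-231, the hypoxia genes outside glycolysis fell in the knockout and the glycolytic enzymes split evenly. Of 20 tested other hypoxia genes, 15 fell and 4 rose, with a median log2 fold change of -0.81. Of 17 glycolytic enzymes, 8 fell and 8 rose, with a median of 0.11, beside a median of 0.18 over all 14450 genes tested. A gene was tested if it had at least 1 FPKM in at least 4 of the 8 libraries of its line, which left out 1 of the 38 members, SLC16A1. Fold changes are differences of log2(FPKM + 1), knockout over wild type, from limma, and a gene rose or fell if its Benjamini-Hochberg adjusted p over all genes tested was below 0.05. In this line 68.2% of all genes tested passed, 25.7% fell and 42.6% rose, while of the 37 tested members 23 fell (62.2%) and 12 rose (32.4%). EGLN3 and CA9 passed the filter through the wild type group, where they were high, and so had to differ. With a filter of 1 FPKM in all 8 libraries they drop out, and of 18 other hypoxia genes 13 fell and 4 rose, with a median of -0.69. By at least 2-fold, 12 members fell and 3 rose, where 9.95% and 11.6% of all genes did. The groups did not overlap for 33 of the 37, beside 62.7% of all genes. Of the 37, 31 had q below 0.05 in the authors' deposited table, a count for which the share over all genes was not computed.

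Another scaling moved both medians alike. Upper-quartile scaling shifted the median of all genes to -0.0092, and of its calls 49.4% were rises, against 62.4% on the deposited scale. The glycolytic median then moved to -0.11 and that of the other hypoxia genes to -1.02, with 8 enzymes higher and 8 lower, and 2 of the other genes higher and 16 lower. In bulk RNA, fewer cells that express a gene and less RNA per cell cannot be told apart.

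**Figure D1:**
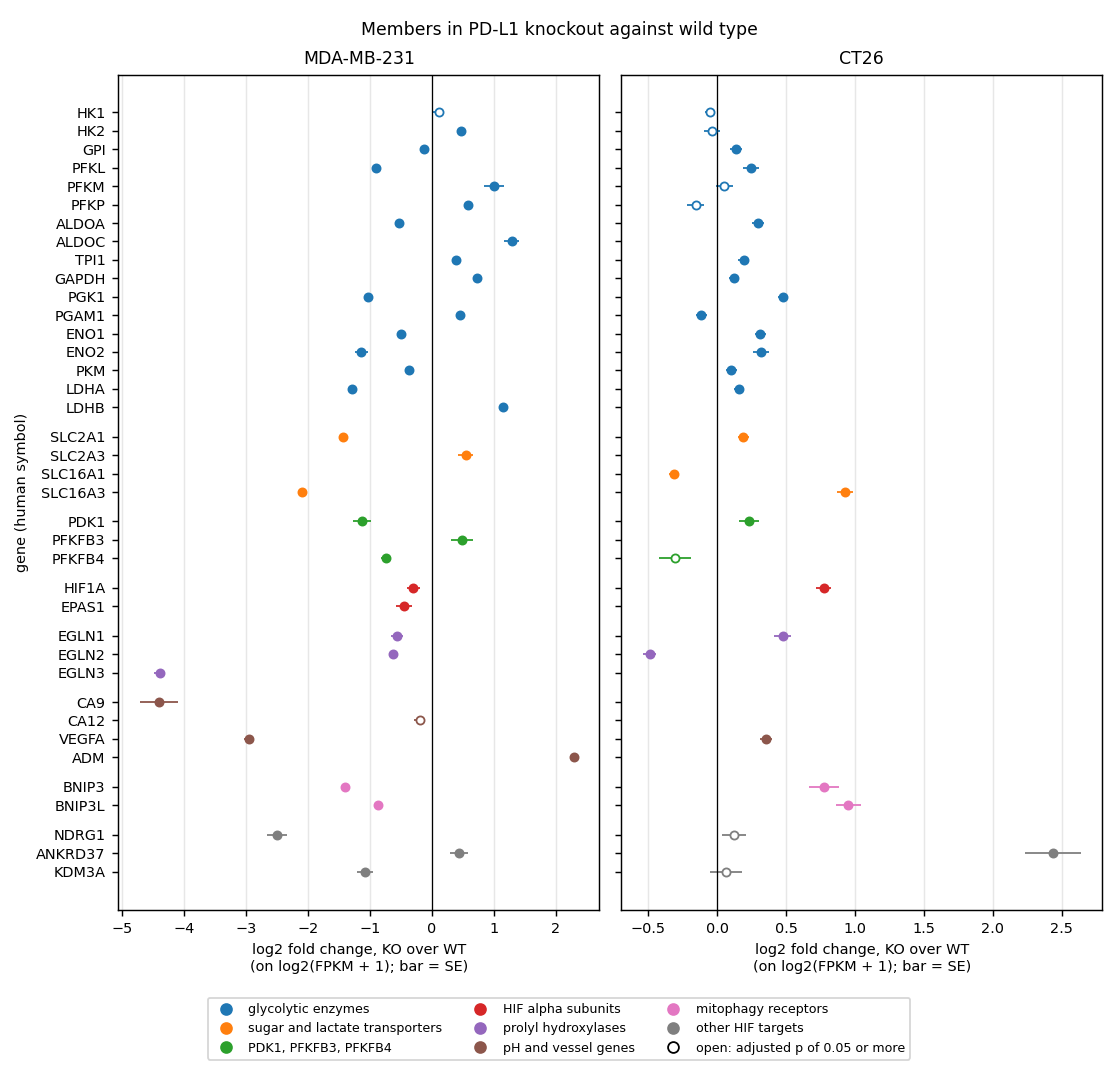
Log2 fold change of each member, knockout over wild type, on the log2(FPKM + 1) scale with its limma standard error, in MDA-MB-231 (left panel) and CT26 (right panel, on its own axis); colours mark the role and open points an adjusted p of 0.05 or more. In MDA-MB-231 the points run from -4.41 for CA9 to 2.30 for ADM, and in CT26 from -0.49 for Egln2 to 2.43 for Ankrd37.

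The enzymes at the head of glycolysis moved apart in MDA-MB-231. HK1, the hexokinase of most tissues, had 94.96 ± 7.89 FPKM in the knockout and 88.2 ± 8.54 FPKM in the wild type and did not pass the test (limma adjusted p = 0.297), with a log2 fold change of 0.11 on the deposited scale and values below 0 after upper-quartile scaling and quantile normalization. Centred on its chromosome window it passed as lower, at -0.36 (limma adjusted p = 0.00480). HK2, the inducible hexokinase of tumours and muscle, rose to 140.2% of the wild type mean (log2 fold change 0.46, limma adjusted p = 1.28e-04). GPI, which isomerises glucose phosphate, was at 91.4% of its wild type mean, with a log2 fold change of -0.13 and a limma adjusted p of 0.0259 that became 0.0523 to 0.0676 without knockout replicate 3 or 4 or wild type replicate 2 or 4. Phosphofructokinase commits sugar to the pathway, and its genes did not move together. The liver-type PFKL fell to 52.6% of the wild type mean (log2 fold change -0.90, SE 0.068, limma adjusted p = 3.91e-06). The muscle-type PFKM rose to 204% (log2 fold change 0.998, SE 0.16, limma adjusted p = 4.82e-04), with knockout libraries that ranged from 62.3 to 101 FPKM. PFKP, the platelet type and the most abundant of the family here, rose to 150.4% (log2 fold change 0.59, SE 0.064, limma adjusted p = 4.40e-05), but had -0.14 once each library was centred on the median of its 20 Mb chromosome window, a step described with the positions.

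In the middle of the chain the most abundant isozymes and GAPDH went different ways. GAPDH (glyceraldehyde phosphate dehydrogenase, often used as a reference gene; ENSG00000111640, hg38 chromosome 12, 6533927 to 6538374) read 7092, 7198, 7104 and 6906 FPKM in the 4 knockout libraries, against 4269, 4379, 4333 and 4178 FPKM in the 4 wild type libraries. Every knockout library lay above every wild type library, and GAPDH rose (log2 fold change 0.72, SE 0.031, limma adjusted p = 1.49e-07). PGK1, the kinase of the next step (ENSG00000102144, hg38 chromosome X, 77910656 to 78129296), read 572, 645, 585 and 607 FPKM in the 4 knockout libraries, against 1069, 1302, 1249 and 1309.9 FPKM in the 4 wild type libraries. It fell, again with no overlap (log2 fold change -1.03, SE 0.071, limma adjusted p = 2.28e-06). ALDOA, the main aldolase, fell to 69.2% of the wild type mean (log2 fold change -0.53, limma adjusted p = 4.03e-06), while ALDOC, the brain type, rose, and had 13.9 ± 1.61 FPKM in the knockout and 5.11 ± 0.778 FPKM in the wild type (log2 fold change 1.29). TPI1, triosephosphate isomerase, and PGAM1, phosphoglycerate mutase, rose by log2 fold changes of 0.39 and 0.45, and were at -0.21 and -0.17 after window centring. ENO1, the ubiquitous enolase, fell to 70.4%, ENO2, the neuronal enolase that HIF also induces, to 45.1%, and PKM, pyruvate kinase, to 77.6% of the wild type mean (log2 fold changes -0.51, -1.14 and -0.37). Several of these genes have near-identical processed copies in the genome, so a part of their fragments may have been counted elsewhere.

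At the last step the subunits of lactate dehydrogenase exchanged rank. Loci are those of the deposited tables, where they can take in neighbouring genes. LDHA, the form that HIF induces and that favours lactate production (ENSG00000134333, hg38 chromosome 11, 18394388 to 18408425), read 924, 955, 922 and 968 FPKM in the 4 knockout libraries, against 2232, 2401, 2252 and 2344 FPKM in the 4 wild type libraries. LDHB, the heart form (ENSG00000111716, hg38 chromosome 12, 21526307 to 21775581), read 1374, 1435, 1407 and 1294 FPKM in the 4 knockout libraries, against 563, 669.7, 619 and 639 FPKM in the 4 wild type libraries. Neither gene had overlapping groups: LDHA fell (log2 fold change -1.29, SE 0.037, limma adjusted p = 1.29e-08) and LDHB rose (log2 fold change 1.15, SE 0.058, limma adjusted p = 3.65e-07). FPKM is per length, so both can be summed within a library, and the share of LDHB in the LDHA and LDHB total was 59.4% ± 1.45 in the knockout and 21.2% ± 0.745 in the wild type (SD, n = 4 each). The total itself was 2319.6 ± 54.2 FPKM in the knockout and 2930.2 ± 121 FPKM in the wild type.

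Transcripts of the main glucose importer and of the lactate exporter fell in the MDA-MB-231 knockout. SLC2A1, the basal glucose transporter GLUT1 (ENSG00000117394, hg38 chromosome 1, 42925375 to 42983358), read 133, 136, 129 and 136 FPKM in the 4 knockout libraries, against 361, 352, 362 and 373 FPKM in the 4 wild type libraries. All knockout libraries were below the lowest wild type library (log2 fold change -1.43, SE 0.036, limma adjusted p = 7.29e-09). SLC2A3, the neuronal glucose transporter, had 13.1 ± 0.981 FPKM in the knockout and 8.73 ± 1.61 FPKM in the wild type and rose (log2 fold change 0.54, SE 0.12, limma adjusted p = 0.00414), with -0.057 after window centring. The sum of both was 146 ± 2.57 FPKM in the knockout and 371 ± 9.56 FPKM in the wild type. SLC16A3, the lactate exporter MCT4 (ENSG00000141526, hg38 chromosome 17, 82228397 to 82273731), read 106, 87.3, 105 and 91.6 FPKM in the 4 knockout libraries, against 416, 387, 429.6 and 441 FPKM in the 4 wild type libraries. It fell to 23.3% of the wild type mean (log2 fold change -2.09, SE 0.074, limma adjusted p = 4.62e-08). SLC16A1, the transporter MCT1 of most cells, had 0.382 to 0.917 FPKM in the knockout and 0.119 to 0.460 FPKM in the wild type and was not tested.

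Among the kinases that steer the pathway, PDK1, which shuts pyruvate out of the mitochondrion, fell to 44.5% of the wild type mean, and PFKFB4, which sets the phosphofructokinase activator, to 57.6% (log2 fold changes -1.13 and -0.75). Its relative PFKFB3 had 36.4, 30.96, 55.6 and 44.99 FPKM in the 4 knockout libraries, against 32.1, 23.7, 30.6 and 30.1 FPKM in the 4 wild type libraries. The groups overlapped, and the log2 fold change of 0.49 (limma adjusted p = 0.0338) did not pass after upper-quartile scaling, quantile normalization or with no filter (limma adjusted p = 0.0744 for the last) and was -0.24 after window centring. Its adjusted p in limma was 0.0527 to 0.0890 without knockout replicate 3 or 4 or wild type replicate 2, 3 or 4.

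The prolyl hydroxylases and the HIF alpha subunits all fell in the MDA-MB-231 knockout. EGLN3, the prolyl hydroxylase that HIF induces most strongly (ENSG00000129521, hg38 chromosome 14, 33924231 to 34462774), read 0.208, 0.0350, 0.134 and 0 FPKM in the 4 knockout libraries, against 21.7, 21.8, 22.3 and 21.8 FPKM in the 4 wild type libraries. No knockout library was above 0.208 FPKM, against a mean of 21.9 FPKM in the wild type (log2 fold change -4.39, SE 0.088, given as a description, since the wild type alone brought EGLN3 past the filter). EGLN1, the main hydroxylase at normal oxygen, and EGLN2, its relative, fell to 66.1% and 63.9% of their wild type means (log2 fold changes -0.56 and -0.63). Within the family, the share of EGLN3 was 0.202% ± 0.210 in the knockout and 22.7% ± 0.429 in the wild type. HIF1A, the alpha subunit of most cells, read 162, 199, 184 and 174 FPKM in the 4 knockout libraries, against 181, 226, 230.2 and 253 FPKM in the 4 wild type libraries. Its groups overlapped at wild type replicate 1, and the log2 fold change of -0.30 came with a limma adjusted p of 0.0297 from all libraries and of 0.0648 to 0.0773 without knockout replicate 1 or 4 or wild type replicate 2, 3 or 4, and of 0.0659 with no filter. EPAS1, which encodes the related second HIF alpha, was at 71.4% of the wild type mean (log2 fold change -0.45, SE 0.13, limma adjusted p = 0.0119).

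The HIF targets outside metabolism moved in both directions. CA9, the membrane carbonic anhydrase that marks hypoxic tumour regions (ENSG00000107159, hg38 chromosome 9, 35658290 to 35681159), read 0.538, 2.04, 0 and 0.852 FPKM in the 4 knockout libraries, against 32.02, 31.6, 45.4 and 34.2 FPKM in the 4 wild type libraries. The knockout mean was 2.39% of the wild type mean (log2 fold change -4.41, SE 0.30, given as a description, since CA9 too passed the filter through the wild type), and knockout replicate 3 was listed at 0. CA12, another membrane carbonic anhydrase, had 4.88 ± 0.543 FPKM in the knockout and 5.74 ± 0.353 FPKM in the wild type and did not pass the test (limma adjusted p = 0.0893), although it passed as lower after upper-quartile scaling, quantile normalization and window centring, the last at -0.72 (limma adjusted p = 9.23e-05). VEGFA, the vessel growth factor (ENSG00000112715, hg38 chromosome 6, 43770184 to 43786487), read 30.5, 24.4, 30.6 and 29.6 FPKM in the 4 knockout libraries, against 219, 214, 242 and 243 FPKM in the 4 wild type libraries. It fell to 12.5% of the wild type mean (log2 fold change -2.96, SE 0.082, limma adjusted p = 1.15e-08). ADM, which encodes the vessel-dilating peptide adrenomedullin (ENSG00000148926, hg38 chromosome 11, 10304680 to 10307397), went the other way and read 118, 118, 110.2 and 123 FPKM in the 4 knockout libraries, against 23.1, 23.4, 24.5 and 21.5 FPKM in the 4 wild type libraries. Knockout libraries averaged 5.08 times the wild type mean (log2 fold change 2.30, SE 0.055, limma adjusted p = 5.63e-09).

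BNIP3 and BNIP3L, receptors that send mitochondria to autophagy, both fell. BNIP3 read 51.8, 51.03, 51.1 and 55.3 FPKM in the 4 knockout libraries, against 142, 145, 138 and 136 FPKM in the 4 wild type libraries (log2 fold change -1.41, SE 0.044, limma adjusted p = 2.13e-08), and BNIP3L had 42.02 ± 3.89 FPKM in the knockout and 77.7 ± 2.87 FPKM in the wild type (log2 fold change -0.87). Neither gene's groups overlapped. NDRG1, a stress-response gene that hypoxia induces, read 28.4, 35.96, 25.1 and 20.4 FPKM in the 4 knockout libraries, against 173, 132, 172 and 155 FPKM in the 4 wild type libraries. That left 17.4% of the wild type mean (log2 fold change -2.502, SE 0.16, limma adjusted p = 1.56e-06). KDM3A, a histone demethylase induced by HIF, fell to 45.004% (log2 fold change -1.08, SE 0.12, limma adjusted p = 5.83e-05). ANKRD37, an ankyrin repeat gene known as a HIF target, had 12.7, 12.1, 14.8 and 8.47 FPKM in the 4 knockout libraries, against 8.90, 8.84, 7.72 and 8.58 FPKM in the 4 wild type libraries. The groups overlapped through knockout replicate 4, and the log2 fold change of 0.43 (limma adjusted p = 0.0280) did not pass after upper-quartile scaling, quantile normalization or with no filter (limma adjusted p = 0.0581 for the last) and was -0.15 after window centring. Its adjusted p in limma was 0.0536 to 0.0708 without knockout replicate 1, 2 or 3 or wild type replicate 3 or 4.

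**Figure D2:**
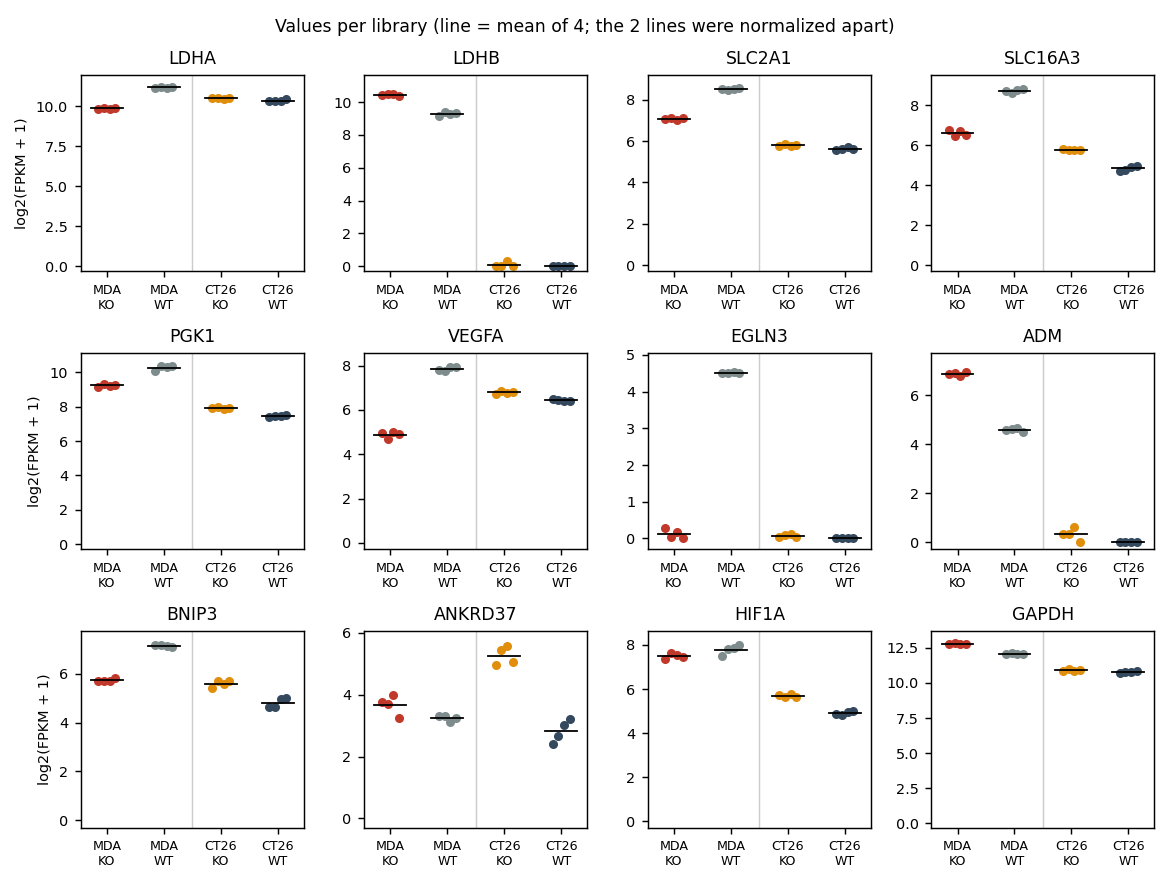
Log2(FPKM + 1) of 12 members in each library of the MDA-MB-231 knockout and wild type and the CT26 knockout and wild type, with the mean of the 4 libraries as a line. LDHA, SLC2A1, SLC16A3, PGK1, VEGFA and BNIP3 lie lower in the MDA-MB-231 knockout than in its wild type and higher in the CT26 knockout than in its wild type; levels cannot be compared between lines.

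In CT26, members of both kinds rose in the knockout, by small amounts. Of 15 tested glycolytic enzymes 10 rose and 1 fell, with a median log2 fold change of 0.14. Of 14 tested other hypoxia genes 9 rose and 2 fell, with a median of 0.29. The median of all 11342 genes tested was -0.059, and 55.8% of them passed, 22.3% rose and 33.5% fell. Of the 29 tested members 19 rose (65.5%) and 3 fell (10.3%). By at least 2-fold 1 member rose and 0 fell, beside 1.94% and 1.91% of all genes. The groups did not overlap for 21 of the 29, beside 51.5% of all genes. Of the 29, 18 had q below 0.05 in the authors' deposited table. For that count too, the share over all genes was not computed. Upper-quartile scaling turned the split of all calls to 53.9% rises, against 40.04% on the deposited scale, and left 19 members higher and 2 lower.

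Among the CT26 enzymes, Pgk1 moved most and read 239.6, 255, 234 and 244 FPKM in the 4 knockout libraries, against 166, 173, 176 and 182 FPKM in the 4 wild type libraries. It rose with no overlap between the groups (log2 fold change 0.48, SE 0.038, limma adjusted p = 1.62e-05). Eno2, Eno1 and Aldoa followed at log2 fold changes of 0.32, 0.31 and 0.30, then Pfkl, Tpi1, Ldha, Gpi1, Gapdh and Pkm at 0.25, 0.19, 0.16, 0.14, 0.12 and 0.10. Aldoa has a further row in the table under another identifier, at 4.49 ± 0.527 FPKM in the knockout and 3.79 ± 0.608 FPKM in the wild type, which did not pass (limma adjusted p = 0.141). Gapdh and Pkm lost their calls after quantile normalization, and Gapdh, Pkm and Gpi1 lost them with no filter (limma adjusted p = 0.0904, 0.127 and 0.0537). The limma adjusted p of Gapdh, 0.0222 from all libraries, was 0.0560 to 0.0613 without knockout replicate 2 or wild type replicate 1 or 2. That of Gpi1, 0.0226 from all libraries, was 0.0531 to 0.0616 without knockout replicate 2 or 4 or wild type replicate 1 or 2. That of Pkm, 0.0406 from all libraries, was 0.0657 to 0.104 without knockout replicate 1 or 2 or wild type replicate 1, 2 or 3. Pgam1 fell (log2 fold change -0.11, SE 0.039, limma adjusted p = 0.0331), a call that did not hold after upper-quartile scaling or quantile normalization, nor without knockout replicate 1, 3 or 4 or wild type replicate 3 or 4 (limma adjusted p = 0.0523 to 0.0802). With the replicate number as a block its limma adjusted p was 0.0898, while that of Pkm was 0.0524. Hk1, Hk2, Pfkm and Pfkp, at log2 fold changes of -0.050, -0.034, 0.052 and -0.15, did not pass, and those of Hk1 and Hk2 were above 0 after upper-quartile scaling and quantile normalization. Aldoc reached 0.874 FPKM at most, and Ldhb was listed at 0 in 7 of the 8 libraries and at 0.248 FPKM in knockout replicate 3.

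Outside the enzymes, the lactate transporters of CT26 moved apart and Hif1a rose. Slc16a3, the lactate exporter (ENSMUSG00000025161, mm10 chromosome 11, 120948480 to 120960868), read 55.4, 52.7, 53.3 and 53.8 FPKM in the 4 knockout libraries, against 25.5, 26.6, 29.004 and 30.5 FPKM in the 4 wild type libraries. It rose (log2 fold change 0.93, SE 0.056, limma adjusted p = 4.07e-06), while Slc16a1, which carries lactate either way, fell to 80.04% of the wild type mean (log2 fold change -0.32, SE 0.031, limma adjusted p = 5.51e-05). The share of Slc16a3 in their summed FPKM was 48.8% ± 0.451 in the knockout and 28.4% ± 2.07 in the wild type (SD, n = 4 each). Slc2a1 rose slightly, to 114% of the wild type mean (log2 fold change 0.19, SE 0.038, limma adjusted p = 0.00298), and Slc2a3 was at 0.00945 FPKM or less. Hif1a (ENSMUSG00000021109, mm10 chromosome 12, 73843039 to 73988966) read 52.02, 48.3, 53.01 and 49.4 FPKM in the 4 knockout libraries, against 28.4, 27.1, 30.2 and 31.3 FPKM in the 4 wild type libraries. It rose (log2 fold change 0.77, SE 0.053, limma adjusted p = 7.35e-06), and Epas1 was listed at 0 in all 8 libraries. Egln1 rose and Egln2 fell (log2 fold changes 0.48 and -0.49), and the share of Egln1 in the family total was 58.4% ± 1.15 in the knockout and 41.4% ± 2.57 in the wild type. Egln3 reached 0.0931 FPKM at most. Pdk1 rose to 118% (log2 fold change 0.23, SE 0.071, limma adjusted p = 0.0222), with a limma adjusted p of 0.0533 to 0.0549 without knockout replicate 4 or wild type replicate 3. Pfkfb4 had 5.80 ± 0.612 FPKM in the knockout and 7.45 ± 1.30 FPKM in the wild type and did not pass (limma adjusted p = 0.0542), and Pfkfb3 reached 0.912 FPKM at most.

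Ankrd37 rose most among the members in CT26 (ENSMUSG00000050914, mm10 chromosome 8, 45975528 to 46029477) and read 30.1, 42.3, 46.3 and 32.2 FPKM in the 4 knockout libraries, against 4.27, 5.29, 7.04 and 8.31 FPKM in the 4 wild type libraries. The lowest knockout library was above the highest wild type library (log2 fold change 2.43, SE 0.20, limma adjusted p = 2.15e-05). Bnip3l and Bnip3 rose as well. Bnip3l read 34.6, 40.9, 34.2 and 38.2 FPKM in the 4 knockout libraries, against 16.1, 17.9, 21.2 and 19.7 FPKM in the 4 wild type libraries (log2 fold change 0.95, SE 0.091, limma adjusted p = 4.68e-05), and Bnip3 had 47.5 ± 4.54 FPKM in the knockout and 27.4 ± 3.93 FPKM in the wild type (log2 fold change 0.78, SE 0.11, limma adjusted p = 3.84e-04). Vegfa rose to 128% of the wild type mean (log2 fold change 0.35, SE 0.043, limma adjusted p = 1.80e-04), while Ndrg1 and Kdm3a, at log2 fold changes of 0.12 and 0.064, did not pass and Adm reached 0.531 FPKM at most. The mouse orthologues of the carbonic anhydrases are listed as Car9 and Car12, outside the symbols that chose the members. Car9 read 15.99, 26.7, 24.7 and 25.98 FPKM in the 4 knockout libraries, against 3.50, 3.97, 6.12 and 4.68 FPKM in the 4 wild type libraries and rose (log2 fold change 2.12, SE 0.19, limma adjusted p = 3.29e-05), and Car12 had 2.16 ± 0.383 FPKM in the knockout and 4.02 ± 0.245 FPKM in the wild type and fell (log2 fold change -0.67, SE 0.094, limma adjusted p = 4.03e-04).

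**Figure D3:**
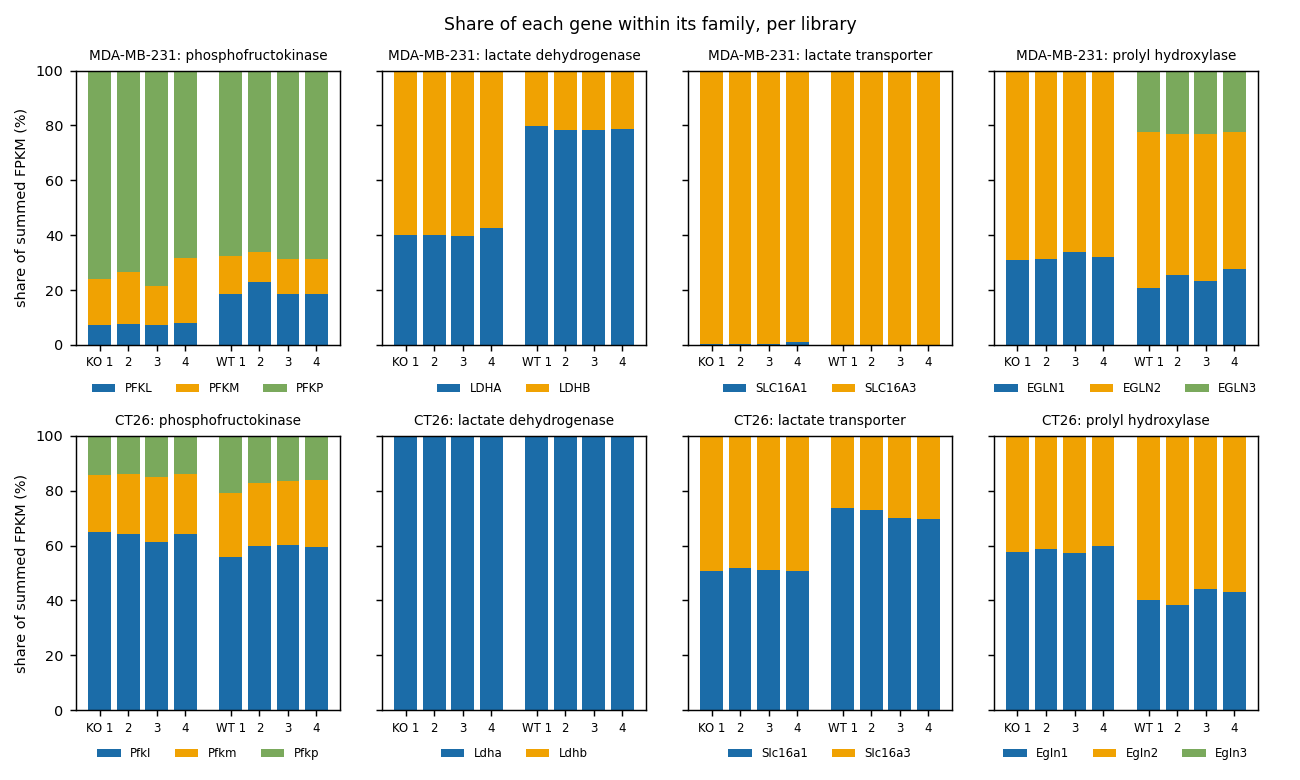
Share of each gene in the summed FPKM of its family, as stacked bars for each knockout and wild type library, in MDA-MB-231 (top row) and CT26 (bottom row). LDHB holds 59.4% of lactate dehydrogenase in the MDA-MB-231 knockout and 21.2% in its wild type, and EGLN3 0.202% and 22.7% of the prolyl hydroxylases; in CT26 Slc16a3 holds 48.8% and 28.4% of the lactate transporters.

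Composition within some other families also moved by more than the spread between libraries, and within others it did not. In MDA-MB-231 the share of PFKL in phosphofructokinase was 7.503% ± 0.397 in the knockout and 19.7% ± 2.16 in the wild type, and that of PFKFB3 in the pair PFKFB3 and PFKFB4 was 77.7% ± 4.57 in the knockout and 58.9% ± 4.51 in the wild type. Neither share had overlapping groups. The share of HK2 in both hexokinases was 18.9% ± 0.515 in the knockout and 15.3% ± 1.502 in the wild type there, without overlap, and in CT26 that of Hk2 was 33.7% ± 0.994 in the knockout and 33.5% ± 2.16 in the wild type, with overlap. ENO1 kept 93.98% or more of enolase in the group means of both lines, and ALDOA 99.01% or more of aldolase. The minor isozymes still moved in MDA-MB-231. There the share of ENO2 was 3.94% ± 0.453 in the knockout and 6.02% ± 0.460 in the wild type. That of ALDOC was 0.989% ± 0.119 in the knockout and 0.254% ± 0.0403 in the wild type. Neither overlapped, while the shares of Eno2 and Aldoc in CT26 did. No test was made of the shares.

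Most members moved one way in MDA-MB-231 and the other way in CT26. Of 28 members tested in both, 22 had log2 fold changes of opposite sign and 6 of the same sign, where 52.3% of all 8689 paired genes had opposite signs. 16 members fell in the MDA-MB-231 knockout and rose in the CT26 knockout, as did 5.48% of the paired genes. They were GPI, PFKL, ALDOA, PGK1, ENO1, ENO2, PKM, LDHA, SLC2A1, SLC16A3, PDK1, HIF1A, EGLN1, VEGFA, BNIP3 and BNIP3L. PGAM1 rose in MDA-MB-231 and fell in CT26. TPI1, GAPDH and ANKRD37 rose in both, and EGLN2 fell in both. Across the 28 members Pearson's r of both sets of log2 fold changes was -0.070 and Spearman's rho -0.38, a description across genes, which are not independent replicates.

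Each difference between the lines was tested as the MDA-MB-231 log2 fold change minus the CT26 one, against a difference of 2-fold, over all 8689 genes tested in both lines. 10 of the 28 members passed, all with the MDA-MB-231 value lower, beside 11.7% of all genes, 4.35% in that direction and 7.35% in the other. VEGFA differed most, by -3.31 (SE 0.095, limma adjusted p = 3.11e-12), followed by SLC16A3, by -3.02 (SE 0.10, limma adjusted p = 2.23e-11). NDRG1 and BNIP3 differed by -2.62 (SE 0.19, limma adjusted p = 2.43e-06) and -2.18 (SE 0.12, limma adjusted p = 4.14e-07). The others were ANKRD37, BNIP3L, SLC2A1, PGK1, ENO2 and LDHA, at -2.001, -1.82, -1.62, -1.51, -1.46 and -1.45. By kind, 3 of 15 glycolytic enzymes and 7 of 13 other hypoxia genes passed. CA9 and Car9, which moved in opposite directions, were not paired by symbol and their difference was not tested. The lines also differ in species, tissue and culture medium, which cannot be told apart from each other here.

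**Figure D4:**
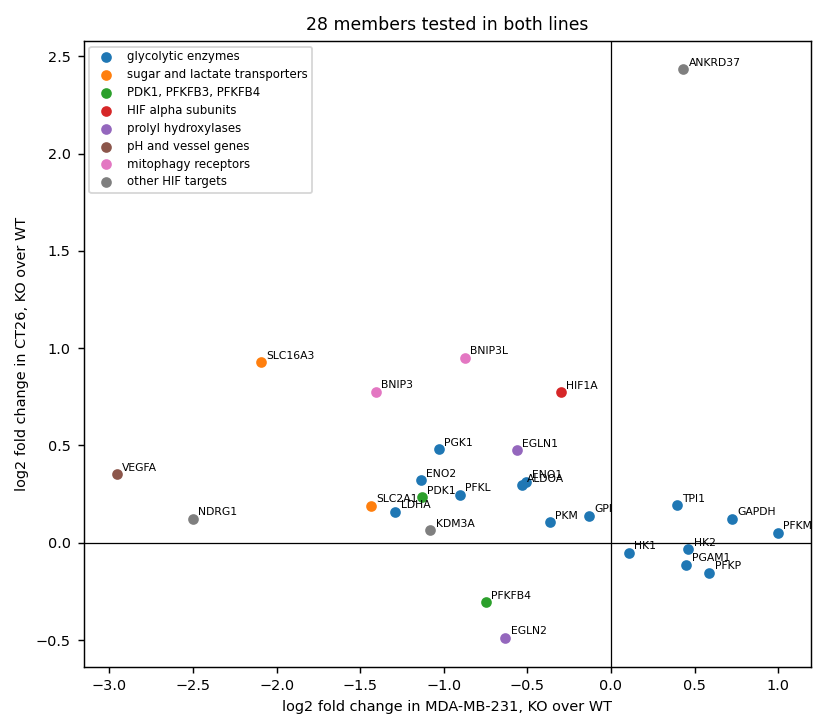
Log2 fold change, knockout over wild type, of the 28 members tested in both lines, in MDA-MB-231 (horizontal axis) and CT26 (vertical axis), coloured by role. Most points lie in the upper left, lower in the MDA-MB-231 knockout and higher in the CT26 knockout, with VEGFA at -2.96 and 0.35 and SLC16A3 at -2.09 and 0.93.

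Members that rose in MDA-MB-231 lay in chromosome windows where many other genes were higher too. The median log2 fold change of the tested genes in a member's 20 Mb window had a midpoint of 0.57 over the 12 members that rose and of 0.11 over the 23 that fell. It was above the median of all genes for 11 of the 12 that rose, all but ADM, and for 10 of the 23 that fell, where the shares over all genes were 58.7% of those that rose and 28.2% of those that fell. GAPDH, TPI1, SLC2A3 and ENO2 share the first window of chromosome 12, whose 149 tested genes had a median of 0.59, and ENO2 fell within it while the others rose. PFKP and PFKFB3 share a window of chromosome 10 with a median of 0.77. LDHA and ADM share a window of chromosome 11, with a median of -0.21, and moved in opposite directions. After each library was centred on its windows, ALDOC, GAPDH, LDHB, ADM and PFKM were still higher, at 0.92, 0.12, 0.62, 2.53 and 0.60, against 1.29, 0.72, 1.15, 2.30 and 0.998 before centring. Then 26 of the 37 members were lower, where 4559 of all 14450 genes were lower and 4593 higher after centring. TPI1 and PGAM1 now passed as lower (log2 fold changes -0.21 and -0.17). HK2 and ENO1 ended near their windows, at 0.037 and -0.011, and no longer passed. GPI, ENO2, PKM, PFKFB4, HIF1A and EPAS1 lay further down after centring, at -0.27, -1.74, -0.89, -1.16, -0.63 and -0.81. The falls of EGLN3, CA9, VEGFA, NDRG1, SLC16A3, SLC2A1, BNIP3 and LDHA were at -4.84, -4.45, -2.56, -2.80, -2.07, -1.48, -1.85 and -1.06 after centring, and those other than EGLN3 and CA9, for which the test is no support, passed. Copy number was not measured, and its part in these values was not tested.

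In CT26 the window medians of the members lay between -0.46 and 0.55, and 11 of the 19 members that rose were above the median of all genes, as were 65.3% of all genes that rose. The highest window was that of Hif1a, whose log2 fold change was 0.22 after centring, still past the threshold. Egln1 and Slc16a1 moved to 0.23 and -0.20 and Gapdh and Pkm to 0.22 and 0.20, all past the threshold. Pgam1 lay in the window with the lowest median, -0.46, and after centring it passed as higher, at 0.34. Ankrd37, Bnip3l, Slc16a3, Bnip3 and Pgk1 stood at 2.14, 0.65, 0.95, 0.84 and 0.49 after centring, and all passed.

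**Figure D5:**
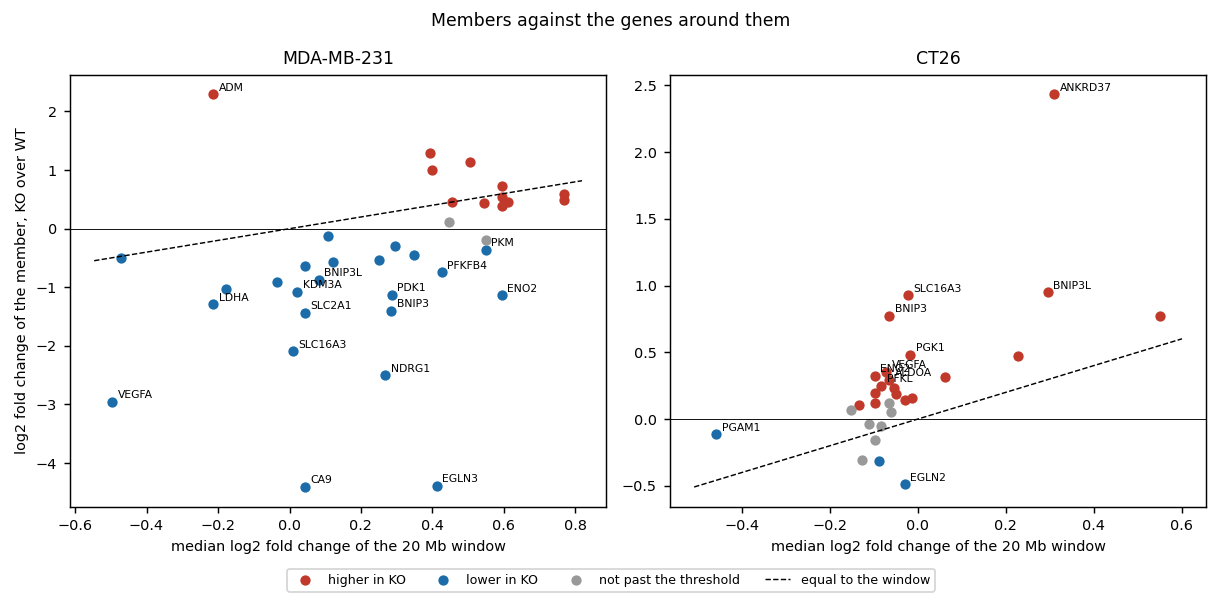
Log2 fold change of each tested member against the median log2 fold change of all tested genes in its 20 Mb window, in MDA-MB-231 (left) and CT26 (right), with the dashed line where both are equal. In MDA-MB-231 the red points, higher in the knockout, lie at window medians of 0.39 or more except ADM, and CA9, EGLN3, VEGFA and NDRG1 lie furthest below the line.

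Other HIF targets, from a list beside the members, fell in MDA-MB-231 and were mixed in CT26. In MDA-MB-231, 26 of 36 tested genes fell and 1 rose, with a median log2 fold change of -0.58, where 25.7% of all genes fell. P4HA2, a collagen prolyl hydroxylase, had 5.93 ± 0.635 FPKM in the knockout and 74.7 ± 1.01 FPKM in the wild type, and LOX, which crosslinks collagen, 6.03 ± 0.505 FPKM in the knockout and 44.3 ± 1.10 FPKM in the wild type (log2 fold changes -3.45 and -2.69). STC1, a secreted glycoprotein gene, fell, with a log2 fold change of -1.75. In CT26 11 of 25 rose and 6 fell, with a median of 0.13, where 22.3% of all genes rose and 33.5% fell. Plod2, a collagen lysyl hydroxylase, Hilpda, a lipid droplet gene, and Ddit4, an inhibitor of mTOR signalling, rose (log2 fold changes 0.75, 0.53 and 0.50), and Wsb1 fell (-0.28).

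Genes that control HIF were counted as a further list. In MDA-MB-231 6 of 13 tested genes rose and 2 fell, with a median of 0.24 beside 0.18 for all genes, of which 42.6% rose and 25.7% fell. VHL, the ubiquitin ligase subunit that binds hydroxylated HIF alpha, had 29.6 ± 0.354 FPKM in the knockout and 16.7 ± 1.19 FPKM in the wild type (log2 fold change 0.80, SE 0.062, limma adjusted p = 5.00e-06). HIF1AN, the asparagine hydroxylase that blocks HIF, CUL2, the ligase scaffold, and CITED2, a competitor for the HIF coactivator, rose, with log2 fold changes of 0.87, 0.81 and 0.65. In CT26 1 of 12 rose and 6 fell, where 22.3% of all genes rose and 33.5% fell. Hif1an had 6.37 ± 0.158 FPKM in the knockout and 10.2 ± 0.206 FPKM in the wild type (log2 fold change -0.61, SE 0.042, limma adjusted p = 8.28e-06), and Cul2, Eloc and Rbx1, subunits of the same ligase, fell (log2 fold changes -0.42, -0.27 and -0.15). Of the difference between lines, 1 of 12 machinery genes and 6 of 24 further targets passed the 2-fold test, beside 11.7% of all genes.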

How the data were processed

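Total RNA of 16 libraries was sequenced. Per the submitters' processing notes, the authors used bcl2fastq 2.18, STAR 2.5.4a, Cufflinks 2.2.1 and Cuffdiff with the builds hg38 and mm10; the annotation, strand and Cuffdiff settings were not stated there. The deposited tables, 1 per line, hold FPKM for each gene and library and the authors' q-value. They were normalized apart, so tests between knockout and wild type stayed within a table. Loci are those of the tables, in which overlapping genes share 1 locus. The status HIDATA marked 13 human and 210 mouse genes, all listed at 0 and left out.

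Values were tested as log2(FPKM + 1), which understates the change of low genes, in limma 3.58.1 (R 4.3.3) with a mean-variance trend, two-sided, at a threshold of 0.05 on Benjamini-Hochberg adjusted p over the whole table; the difference between lines was tested with treat on genes paired by symbol. Without strand, antisense genes cannot be told apart. The fits were tested on simulated data before use. Alternatives were other pseudocounts, filters and scalings, no trend, a replicate block, 20 Mb window centring (windows of at least 20 tested genes) and leaving out each library. Python 3.11.15, pandas 2.3.3 and matplotlib 3.10.9 served for summaries. All members are described; from the other lists at most 4 genes per list and line were named, those with the smallest adjusted p. The members and lists were chosen with earlier results of these data known. Some genes of these lists are not reported here.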

Additional observations from a re-analysis of the deposited data

Results flagged for a closer look

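In 5 of 142 groups of 4 libraries, 1 library stood apart from the others by more than Dixon's 95% criterion, which chance alone does in about 1 group in 20. EGLN3, in the MDA-MB-231 wild type, had its highest library at 22.3 FPKM with the others at 21.7 to 21.8 FPKM. VEGFA, in the MDA-MB-231 knockout, had its lowest library at 24.4 FPKM with the others at 29.6 to 30.6 FPKM. Aldoa in its further row, in the CT26 wild type, had its highest library at 4.70 FPKM with the others at 3.39 to 3.55 FPKM. Ldha, in the CT26 wild type, had its highest library at 1378 FPKM with the others at 1262 to 1282 FPKM. Egln2, in the CT26 knockout, had its highest library at 28.1 FPKM with the others at 26.8 to 26.95 FPKM. Each of these lay on the same side of the other group as the rest of its own group, except the further row of Aldoa, whose groups overlap.

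The knockout response differed by more than 2-fold between the lines for 10 members (limma treat, adjusted over all 8689 paired genes), in each case with the MDA-MB-231 log2 fold change below that of CT26. The differences were -1.51 for PGK1 (adjusted p = 9.90e-05), -1.46 for ENO2 (adjusted p = 0.00800), -1.45 for LDHA (adjusted p = 1.67e-06), -1.62 for SLC2A1 (adjusted p = 7.84e-08), -3.02 for SLC16A3 (adjusted p = 2.23e-11), -3.31 for VEGFA (adjusted p = 3.11e-12), -2.18 for BNIP3 (adjusted p = 4.14e-07), -1.82 for BNIP3L (adjusted p = 2.78e-05), -2.62 for NDRG1 (adjusted p = 2.43e-06) and -2.001 for ANKRD37 (adjusted p = 0.00600). These calls held in all 23 alternatives run for the difference.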

How the results depend on the processing

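Of the called members, 25 of 35 in MDA-MB-231 and 17 of 22 in CT26 kept their direction and call under every alternative run. The 25 include EGLN3 and CA9, which had to differ and were absent under the stricter filter. Their calls are therefore no support. Depth limits values below 1 FPKM most, above all in the MDA-MB-231 knockout. The pseudocount acts mainly on low genes by construction. The filters pick genes by level, but p is adjusted over every gene kept, so calls of abundant genes can change too. With no filter, Gapdh and Pkm of CT26 lost their calls (limma adjusted p = 0.0904 and 0.127). HIF1A of the human line lost its call as well (limma adjusted p = 0.0659). The cause of the other moves was not tested.

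With pseudocount 5, 875 (all genes changed in MDA-MB-231, higher by 2-fold, from 1671), 685 (all genes changed in MDA-MB-231, lower by 2-fold, from 1438), -0.71 (median log2 fold change of other hypoxia genes in MDA-MB-231, from -0.81), 0.12 (median log2 fold change of all genes tested in MDA-MB-231, from 0.18), 81 (all genes changed in CT26, higher by 2-fold, from 220), 91 (all genes changed in CT26, lower by 2-fold, from 217) and -0.043 (median log2 fold change of all genes tested in CT26, from -0.059) were obtained. With window centring, 921 (all genes changed in MDA-MB-231, higher by 2-fold, from 1671), 5 (members changed in MDA-MB-231, higher in KO, from 12), 1 (members changed in MDA-MB-231, higher by 2-fold, from 3), -0.21 (median log2 fold change of glycolytic enzymes in MDA-MB-231, from 0.11), -0.999 (median log2 fold change of other hypoxia genes in MDA-MB-231, from -0.81), 0.79 (difference of the glycolytic median minus the other hypoxia median in MDA-MB-231, from 0.92), -0.0044 (median log2 fold change of all genes tested in MDA-MB-231, from 0.18), 140 (all genes changed in CT26, lower by 2-fold, from 217), 0.22 (median log2 fold change of glycolytic enzymes in CT26, from 0.14), -0.024 (difference of the glycolytic median minus the other hypoxia median in CT26, from -0.15) and 0.0036 (median log2 fold change of all genes tested in CT26, from -0.059) were obtained. With stricter filter, 738 (all genes changed in MDA-MB-231, lower by 2-fold, from 1438), -0.69 (median log2 fold change of other hypoxia genes in MDA-MB-231, from -0.81), 0.80 (difference of the glycolytic median minus the other hypoxia median in MDA-MB-231, from 0.92), 0.22 (median log2 fold change of all genes tested in MDA-MB-231, from 0.18), 145 (all genes changed in CT26, higher by 2-fold, from 220) and -0.067 (median log2 fold change of all genes tested in CT26, from -0.059) were obtained. With upper-quartile scaling, -0.11 (median log2 fold change of glycolytic enzymes in MDA-MB-231, from 0.11), -1.02 (median log2 fold change of other hypoxia genes in MDA-MB-231, from -0.81), -0.0092 (median log2 fold change of all genes tested in MDA-MB-231, from 0.18), 3 (members changed in CT26, higher by 2-fold, from 1), 0.23 (median log2 fold change of glycolytic enzymes in CT26, from 0.14), 0.38 (median log2 fold change of other hypoxia genes in CT26, from 0.29) and 0.025 (median log2 fold change of all genes tested in CT26, from -0.059) were obtained. With quantile normalization, -0.14 (median log2 fold change of glycolytic enzymes in MDA-MB-231, from 0.11), -0.99 (median log2 fold change of other hypoxia genes in MDA-MB-231, from -0.81), 0.082 (median log2 fold change of all genes tested in MDA-MB-231, from 0.18), 3 (members changed in CT26, higher by 2-fold, from 1), -0.23 (difference of the glycolytic median minus the other hypoxia median in CT26, from -0.15) and -0.017 (median log2 fold change of all genes tested in CT26, from -0.059) were obtained. With pseudocount 0.1, 0.20 (median log2 fold change of all genes tested in MDA-MB-231, from 0.18) and 342 (all genes changed in CT26, higher by 2-fold, from 220) were obtained. With no filter, 0.0060 (median log2 fold change of all genes tested in MDA-MB-231, from 0.18) and 0.0019 (median log2 fold change of all genes tested in CT26, from -0.059) were obtained. Leaving out single libraries gave 0.17 to 0.19 (median log2 fold change of all genes tested in MDA-MB-231), 2 to 5 (members changed in CT26, lower in KO), 1 to 2 (members changed in CT26, higher by 2-fold), 0.12 to 0.17 (median log2 fold change of glycolytic enzymes in CT26) and -0.065 to -0.051 (median log2 fold change of all genes tested in CT26). Directions reversed as follows: upper-quartile scaling gave -0.11 (HK1 in MDA-MB-231), 0.040 (Hk1 in CT26), 0.054 (Hk2 in CT26), -0.15 (HK1, difference between lines) and -0.11 (TPI1, difference between lines); quantile normalization gave -0.14 (HK1 in MDA-MB-231), 0.035 (Hk1 in CT26), 0.025 (Hk2 in CT26) and -0.17 (HK1, difference between lines); window centring gave -0.36 (HK1 in MDA-MB-231), -0.14 (PFKP in MDA-MB-231), -0.21 (TPI1 in MDA-MB-231), -0.17 (PGAM1 in MDA-MB-231), -0.057 (SLC2A3 in MDA-MB-231), -0.24 (PFKFB3 in MDA-MB-231), -0.15 (ANKRD37 in MDA-MB-231), 0.061 (Hk1 in CT26), 0.10 (Hk2 in CT26), 0.34 (Pgam1 in CT26), -0.42 (HK1, difference between lines), -0.061 (HK2, difference between lines), -0.060 (PFKP, difference between lines), -0.49 (TPI1, difference between lines), -0.093 (GAPDH, difference between lines) and -0.51 (PGAM1, difference between lines); leaving out single libraries gave -0.057 to 0.0096 (Hk2 in CT26) and -0.032 to 0.15 (Kdm3a in CT26). The replicate block changed the calls of Pkm and Pgam1 in CT26 and of no other member; all genes changed numbered 9648 in MDA-MB-231 and 6032 in CT26 with it, and 9860 and 6328 without it. The correlation of deviations between same-numbered libraries was -0.037 to 0.0044 in MDA-MB-231 and 0.027 to 0.078 in CT26, so the numbers were not taken as pairs, although in CT26 every library correlated best with its own number.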

Other observations

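Genes of neighbouring pathways are given beside the shares of all genes tested, of which 42.6% rose and 25.7% fell in MDA-MB-231 and 22.3% rose and 33.5% fell in CT26. In the entry of pyruvate into mitochondria, MPC2 and Mpc2 fell in both lines. MPC2, a subunit of the mitochondrial pyruvate carrier, had 32.1 ± 3.20 FPKM in the knockout and 85.02 ± 5.03 FPKM in the wild type (SD, n = 4 each) in MDA-MB-231 (log2 fold change -1.38, SE 0.079, limma adjusted p = 7.28e-07), and Mpc2 had 37.5 ± 2.13 FPKM in the knockout and 61.3 ± 2.21 FPKM in the wild type in CT26 (log2 fold change -0.70, SE 0.048, limma adjusted p = 7.51e-06). Subunits of pyruvate dehydrogenase, DLAT and PDHB, rose in MDA-MB-231 (log2 fold changes 1.001 and 0.68), as did its activating phosphatase gene PDP2 (1.14). In CT26, Pdha1 and Pdhx fell and Dld rose (-0.37, -0.29 and 0.40). Over this list 5 of 11 tested genes rose and 4 fell in MDA-MB-231, and 1 of 10 rose and 5 fell in CT26.

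In the pentose phosphate pathway, which branches off glucose phosphate, RPIA and RPE, the isomerase and epimerase of its non-oxidative arm, rose in MDA-MB-231. RPIA had 30.1 ± 1.90 FPKM in the knockout and 10.3 ± 0.831 FPKM in the wild type, and RPE had 41.4 ± 3.12 FPKM in the knockout and 15.8 ± 1.30 FPKM in the wild type (log2 fold changes 1.47 and 1.33). Rpia and Rpe fell in CT26 (-0.51 and -0.55). The differences between lines were 1.97 (SE 0.10, limma adjusted p = 7.07e-07) for RPIA and 1.89 (SE 0.10, limma adjusted p = 2.23e-06) for RPE against a 2-fold difference. TKT, transketolase, rose in both lines (0.84 in MDA-MB-231 and 0.38 in CT26). H6PD, which works in the endoplasmic reticulum, fell in MDA-MB-231 (-1.65), and Pgls rose in CT26 (0.43). Over the list 3 of 8 rose and 3 fell in MDA-MB-231, and 3 of 7 rose and 4 fell in CT26.

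Of gluconeogenesis, FBP1, which reverses the phosphofructokinase step, had 9.96 ± 1.11 FPKM in the knockout and 29.98 ± 1.99 FPKM in the wild type in MDA-MB-231 (log2 fold change -1.502, SE 0.088, limma adjusted p = 8.42e-07), PC fell (-0.83) and PCK2, the mitochondrial PEP carboxykinase, rose (0.91); Pck2 rose in CT26 (0.30). The list gave 1 higher and 3 lower of 4 in MDA-MB-231 and 1 higher and 0 lower of 2 in CT26. Further glycolytic isozymes and sugar transporters gave 4 higher and 6 lower of 12 in MDA-MB-231, and 2 higher and 1 lower of 11 in CT26. SLC16A7, the lactate and pyruvate transporter MCT2, read 5.03, 5.47, 5.64 and 6.52 FPKM in the 4 knockout libraries, against 0.529, 0.409, 0.323 and 1.04 FPKM in the 4 wild type libraries in MDA-MB-231 (log2 fold change 2.10, SE 0.15). This is given as a description, since SLC16A7, counted among those higher, passed the filter through the knockout, where it was high. PGM2 rose and PGM1, the main phosphoglucomutase, fell there (1.43 and -1.07), and Tigar fell in CT26 (-0.41).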
